A study of Heterocephalus glaber with 2 samples.

Results

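The genes described here encode the enzymes that store and release the neutral lipids of lipid droplets, with a pair of proteins that control the first step of release. They are *Dgat1*, *Dgat2* and *Soat1*, which esterify, *Pnpla2*, *Lipe*, *Mgll*, *Lipa* and *Nceh1*, which hydrolyze, and *Abhd5* and *G0s2*, which regulate the lipase of *Pnpla2*. Members were chosen by role and taken by gene symbol, and all 10 had a single entry among the 37520 entries of each deposited table. RNA of NSFs, primary skin fibroblasts of the adult naked mole-rat (NMR), was sequenced as 1 *shβ-catenin* library (cells with lentiviral hairpin #1 against *β-catenin*) and 1 *shControl* library (cells with the empty lentiviral vector). Both cultures were selected with puromycin, and the study kept its NMR fibroblasts at low oxygen. The control carries no non-targeting hairpin, and only 1 hairpin was sequenced. The study asked how β-catenin is linked to the cholesterol-enriched lipid droplets of these cells. Each condition has 1 library, which leaves no replicate error and allows no test, so every difference below is one between these libraries, and differences between cultures, hairpins or days cannot be told apart from the knockdown.

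Neutral lipid is kept in droplets as triglyceride and as cholesteryl ester. DGAT1 and DGAT2, the diacylglycerol acyltransferases, make triglyceride by adding the last fatty acid to diacylglycerol, and SOAT1 (ACAT1) esterifies free cholesterol in the endoplasmic reticulum. Stored triglyceride is broken down in sequence by ATGL (the product of *Pnpla2*), by hormone-sensitive lipase (*Lipe*) and by monoacylglycerol lipase (*Mgll*), where ABHD5 activates ATGL and G0S2 inhibits it. Cholesteryl ester is hydrolyzed by lysosomal acid lipase (*Lipa*) inside lysosomes, and outside them by neutral enzymes, among which NCEH1 and hormone-sensitive lipase are known from macrophages and steroid-producing or fat cells.

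The targeted gene, *Ctnnb1*, was listed at 69.0 FPKM (fragments scaled to exon length and to the mapped fragments of a library) in the *shβ-catenin* library and at 530 FPKM in the *shControl* library. Genes of at least 1 FPKM numbered 13172 in *shβ-catenin* and 12926 in *shControl* cells. Fold-changes are log2 of *shβ-catenin* over *shControl* after adding 0.1 FPKM to both values, and counts of genes use the 13097 genes that average 1 FPKM or more over the 2 libraries, called expressed genes here. Their median log2 fold-change was −0.010. Among 10 fibroblast markers, the collagen genes *Col1a1*, *Col1a2* and *Col3a1*, *Vim* and *Fn1* were all at 540 FPKM or more in both libraries, whereas *Thy1*, *Dcn* and *Lum* did not exceed 2.42 FPKM in either. The expressed fibroblast markers had a median log2 fold-change of −0.59. *Col3a1*, *Col1a1*, *Col1a2*, *Pdgfra*, *Pdgfrb* and *Vim* were lower, by 1.97-fold for *Col3a1*, while *Fn1* was 1.80-fold and *Dcn* 7.67-fold higher, and the part of these shifts in the values below was not tested. For comparison, 14 reference genes of general cell functions had log2 fold-changes between −0.59 (*Gapdh*) and 0.62 (*Tfrc*). Without these extremes, a span added once the values were known, they ran from −0.40 (*Ppia*) to 0.37 (*Gusb*). They come from the same libraries and give no replicate error.

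All the turnover genes with a measurable level lay inside the full range of the reference genes. Above the narrower span that leaves out its extremes, *Gapdh* and *Tfrc*, lay *Soat1*, *Nceh1* and *Dgat2*. *Dgat2* did so narrowly (0.371 against 0.367 for *Gusb*), and this span was chosen with the values known. *Soat1*, *Nceh1*, *Dgat2* and *Abhd5* were higher in *shβ-catenin* cells by 1.25- to 1.41-fold, *Lipa* and *G0s2* were lower by 1.31-fold each, and *Lipe* was 1.14-fold higher. *Dgat1* and *Pnpla2* differed by less than 3% between the libraries. *Mgll* was listed at or near 0 in both libraries. None of the 9 expressed members passed the 4-fold threshold of the study's methods or 2-fold, in either direction, where 0.886% and 5.32% of all expressed genes did. *Mgll*, the remaining member, is not counted.

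**Figure D1:**
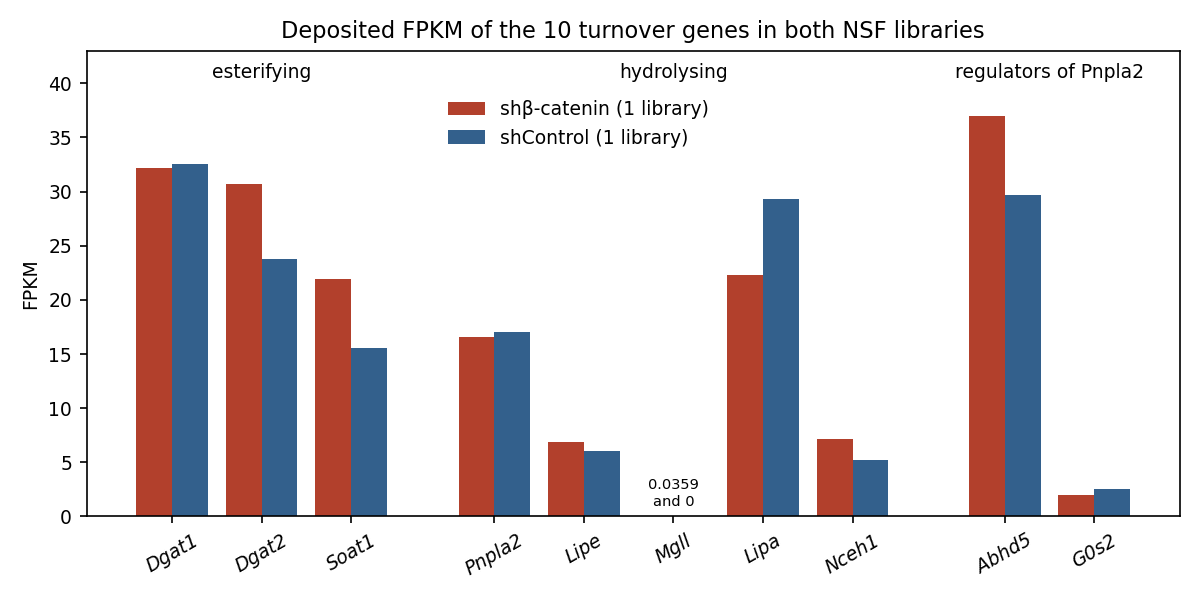
FPKM (y axis) of the 10 turnover genes (x axis) as deposited, in the *shβ-catenin* library (red, left bar) and the *shControl* library (blue, right bar), grouped by role. There is 1 library per condition, hence no error bars. *Dgat2*, *Soat1* and *Abhd5* have taller *shβ-catenin* bars, *Lipa* has a taller *shControl* bar, and *Mgll* has no visible bar.

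Among the esterifying enzymes, *Soat1* showed the largest difference of all the members. It was listed at 21.9 FPKM in *shβ-catenin* cells and at 15.5 FPKM in *shControl* cells, a 1.41-fold higher value (log2 fold-change 0.49). Of the 13097 genes, 10.5% had a log2 fold-change at least as high. *Soat2*, which encodes the other cholesterol acyltransferase, an enzyme of liver and intestine, was listed at 0 in both libraries and is named outside the rule for naming genes. A listed 0 does not show absence in these tables, since *Ywhaz*, which nearly all cells express, was also listed at 0 in both.

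The 2 acyltransferases of triglyceride synthesis differed to unlike extents. *Dgat2*, whose enzyme is known for its part in esterifying newly made fatty acids, was listed at 30.7 FPKM in *shβ-catenin* cells and 23.7 FPKM in *shControl* cells, a 1.29-fold higher value (log2 fold-change 0.37, with 15.0% of all genes at least as high). *Dgat1*, whose enzyme belongs to the same membrane-bound acyltransferase family as SOAT1, was listed at 32.2 FPKM in *shβ-catenin* cells and 32.6 FPKM in *shControl* cells. Its log2 fold-change was −0.016, and it turned to 0.063 with upper quartile scaling (each library divided by the upper quartile of its genes above 0), so no direction can be read from it. *Dgat1* was the higher of the pair in both libraries, with a ratio to *Dgat2* of 1.05 in *shβ-catenin* cells and 1.37 in *shControl* cells.

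Of the hydrolases of triglyceride, *Pnpla2*, the gene of the enzyme that opens the pathway, was listed at 16.6 FPKM in *shβ-catenin* cells and 17.0 FPKM in *shControl* cells. Its log2 fold-change of −0.037 also changed sign with upper quartile scaling (0.041). *Lipe*, which takes the resulting diacylglycerol and also accepts cholesteryl ester, was listed at 6.90 FPKM in *shβ-catenin* cells and 6.03 FPKM in *shControl* cells (log2 fold-change 0.19), and 27.1% of all genes were at least as high. *Lipe* stayed well below *Pnpla2* in both libraries, at a ratio of 0.416 in *shβ-catenin* cells and 0.354 in *shControl* cells.

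*Mgll*, whose product releases glycerol and the last fatty acid from monoacylglycerol, was listed at 0.0359 FPKM in *shβ-catenin* cells and at 0 in *shControl* cells. It had the lowest listed value of the members in both libraries and was the only one not counted as expressed. Against a listed 0 no fold is given, and a listed 0 does not show absence, as described for *Ywhaz*. Its log2 fold-change follows the pseudocount alone, at 0.44 with 0.1 FPKM, 2.20 with 0.01 FPKM and 0.051 with 1 FPKM. Hydrolases of monoacylglycerol other than *Mgll* were measured in both libraries. *Abhd12*, a serine hydrolase best known for hydrolyzing lysophosphatidylserine, was listed at 60.3 FPKM in *shβ-catenin* cells and 43.2 FPKM in *shControl* cells. *Abhd6*, a monoacylglycerol lipase, was listed at 7.39 FPKM in *shβ-catenin* cells and 9.02 FPKM in *shControl* cells. *Abhd6* lies outside the rule for naming genes and was chosen after its value was seen.

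*Lipa* and *Nceh1*, which act on cholesteryl ester in different compartments, differed in opposite directions. *Lipa*, whose lysosomal enzyme hydrolyzes triglyceride as well, was listed at 22.3 FPKM in *shβ-catenin* cells and 29.3 FPKM in *shControl* cells, a 1.31-fold lower value (log2 fold-change −0.39, with 13.9% of all genes at least as low). *Nceh1*, the neutral enzyme of the endoplasmic reticulum, was listed at 7.15 FPKM in *shβ-catenin* cells and 5.23 FPKM in *shControl* cells, a 1.37-fold higher value (log2 fold-change 0.44, with 12.0% of all genes at least as high). *Lipa* remained the higher of the pair. Its ratio to *Nceh1* was 3.12 in *shβ-catenin* cells and 5.60 in *shControl* cells.

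Both regulators of ATGL differed, again in opposite directions. *Abhd5* (CGI-58), the coactivator, was the highest member in *shβ-catenin* cells, at 37.0 FPKM against 29.7 FPKM in *shControl* cells (log2 fold-change 0.32, with 17.7% of all genes at least as high). *G0s2*, the inhibitor, was listed at 1.95 FPKM in *shβ-catenin* cells and 2.54 FPKM in *shControl* cells (log2 fold-change −0.37, or −0.27 with a pseudocount of 1 FPKM). The ratio of the *G0s2* values equals that of 7 fragments in *shβ-catenin* cells to 11 in *shControl* cells, once the depth of the libraries is allowed for. At these smallest whole numbers the exact Clopper-Pearson 95% interval of its FPKM ratio ran from 0.252 to 2.16, and at 4 times as many fragments from 0.459 to 1.26. Both intervals include no difference, they cover counting error only, and which multiple was sequenced is unknown. *Pnpla2*, the target of both regulators, exceeded *G0s2* by 8.52-fold in *shβ-catenin* cells and by 6.69-fold in *shControl* cells, and *Abhd5* exceeded *Pnpla2* in both.

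**Figure D2:**
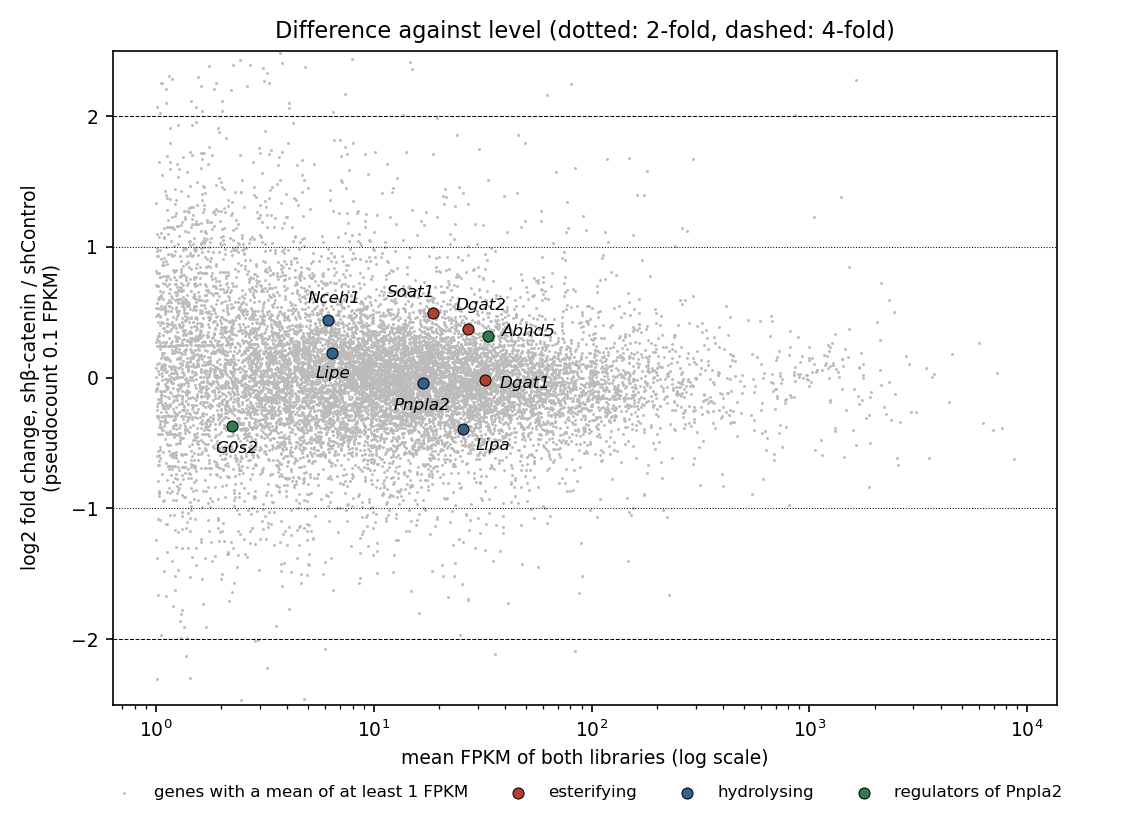
Log2 fold-change of *shβ-catenin* over *shControl* (y axis, pseudocount 0.1 FPKM) against the mean FPKM of both libraries (x axis, log scale) for the 13097 expressed genes (grey), of which 63 lie beyond the y axis. The 9 expressed turnover genes are colored by role and all lie between the dotted lines at 2-fold, from −0.39 for *Lipa* to 0.49 for *Soat1*.

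By level, *Abhd5*, *Dgat1*, *Dgat2*, *Lipa* and *Soat1* came first in *shβ-catenin* cells, from 37.0 to 21.9 FPKM. In *shControl* cells the order was *Dgat1*, *Abhd5*, *Lipa*, *Dgat2* and *Pnpla2*, from 32.6 to 17.0 FPKM. *Mgll*, *G0s2*, *Lipe*, *Nceh1* and *Pnpla2* were the lowest in *shβ-catenin* cells. In *shControl* cells *Soat1* took the place of *Pnpla2* among the lowest 5, and *Nceh1* lay below *Lipe*. Without replicates, it cannot be said whether neighbors that lie close together, such as *Lipa* and *Soat1* in *shβ-catenin* cells or *Abhd5* and *Lipa* in *shControl* cells, differ in level. The esterifying genes were all in the upper part of expressed genes, as were *Abhd5*, *Lipa* and *Pnpla2*. *Dgat1* was above 78.9% of the 13097 genes in *shβ-catenin* cells and above 78.4% in *shControl* cells. *Soat1* was above 69.7% in *shβ-catenin* cells and 59.7% in *shControl* cells. *Lipe*, *Nceh1* and *G0s2* were in the lower part, with *G0s2* above 10.4% in *shβ-catenin* cells and 15.9% in *shControl* cells.

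Taken by role, the median log2 fold-change was 0.37 over the 3 esterifying enzymes (2 higher and 1 lower, or 3 and 0 with upper quartile scaling). Over the 5 hydrolases it was 0.19, and over the 4 without *Mgll* it was 0.077 (2 higher and 2 lower, or 3 and 1 with upper quartile scaling). Over all 10 members it was 0.25, and over the 9 expressed ones it was 0.19. Among these 9, higher values were seen in 5 and lower in 4, where 48.7% of all expressed genes were higher and 51.3% lower. With upper quartile scaling 7 were higher and 2 lower, and 58.3% of all expressed genes were higher. No member passed 1.5-fold, where 15.2% of all genes did. At 1.25-fold, a limit chosen after the values were seen, *Soat1*, *Nceh1* and *Dgat2* were higher (17.5% of all genes) and *Lipa* and *G0s2* lower (18.2% of all genes), with *Abhd5* just inside the limit. Of the 14 reference genes, 2 were higher and 2 lower by this measure.

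Ratios between members within a library do not depend on how the libraries are scaled to each other. The esterifying genes summed to 84.8 FPKM in *shβ-catenin* cells and 71.8 FPKM in *shControl* cells, and the hydrolases to 52.9 FPKM in *shβ-catenin* cells and 57.6 FPKM in *shControl* cells. Their ratio was 1.60 in *shβ-catenin* cells and 1.25 in *shControl* cells. *Lipa* accounted for much of this difference. Without it, an option added once the values were known, the ratio was 2.77 in *shβ-catenin* cells and 2.54 in *shControl* cells.

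Among the genes that act on cholesteryl ester, *Soat1* was about level with *Lipa* in *shβ-catenin* cells (ratio 0.982) and well below it in *shControl* cells (0.530). This 1.85-fold difference was the largest among the ratios examined that do not involve *Mgll*. It had to be, since it pairs the expressed members with the highest and the lowest log2 fold-change. Against *Nceh1* and *Lipa* summed, the ratio of *Soat1* was 0.743 in *shβ-catenin* cells and 0.450 in *shControl* cells. The ratio of *Soat1* to *Nceh1* alone was nearly equal between the libraries, at 3.06 in *shβ-catenin* cells and 2.97 in *shControl* cells, since both genes were higher by similar amounts. On the triglyceride side, the sum of *Dgat1* and *Dgat2* over *Pnpla2* was 3.80 in *shβ-catenin* cells and 3.31 in *shControl* cells. The coactivator exceeded the inhibitor (*Abhd5* over *G0s2*) by 19.0-fold in *shβ-catenin* cells and 11.7-fold in *shControl* cells, a ratio that shares the counting error of *G0s2*.

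**Figure D3:**
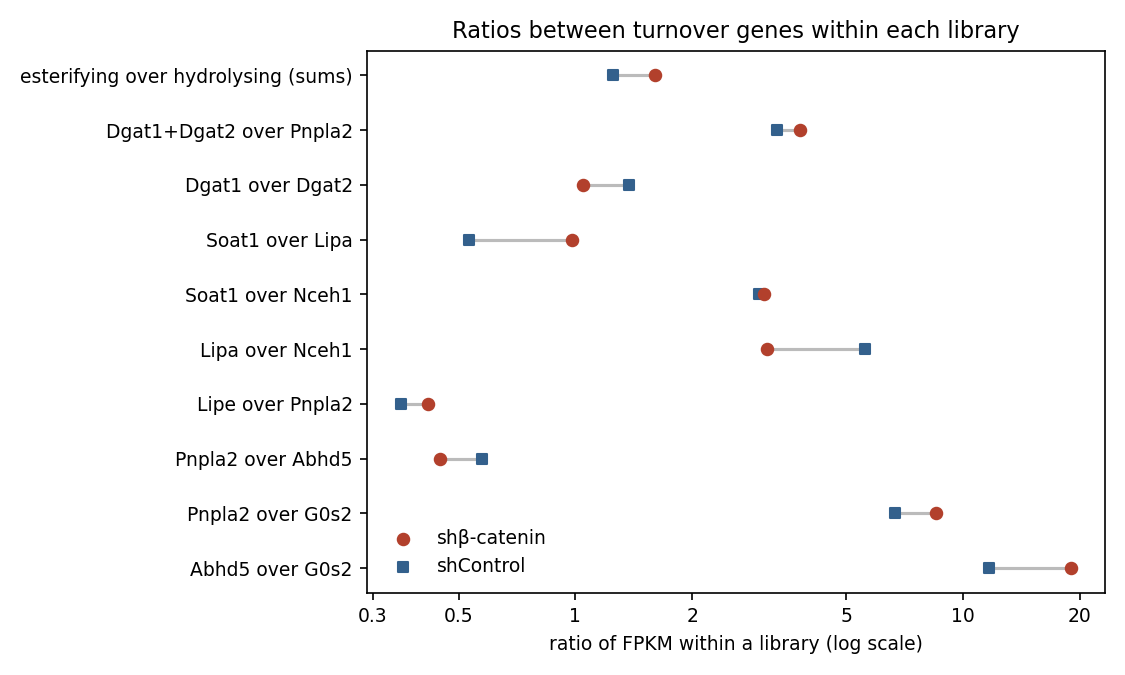
Ratios of FPKM between turnover genes (rows) within the *shβ-catenin* library (red circles) and the *shControl* library (blue squares), on a log scale. Among the ratios drawn, the widest gaps are those of *Soat1* over *Lipa* (0.982 in *shβ-catenin* and 0.530 in *shControl* cells), *Lipa* over *Nceh1* (3.12 in *shβ-catenin* and 5.60 in *shControl* cells) and *Abhd5* over *G0s2* (19.0 in *shβ-catenin* and 11.7 in *shControl* cells), while *Soat1* over *Nceh1* nearly coincides.

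The enzymes that supply the acyltransferases with diacylglycerol and activated fatty acids were spread around no difference. Of 21 such genes, 15 were expressed. The median log2 fold-change of these was −0.016 (0.063 with upper quartile scaling), and 7 were higher and 8 lower (9 and 6 with that scaling). Of all expressed genes, 48.7% were higher, or 58.3% with that scaling. None of the 15 passed 2-fold, which 5.32% of all expressed genes did. *Gk*, the glycerol kinase gene, was 1.77-fold higher, at 4.62 FPKM in *shβ-catenin* cells and 2.60 FPKM in *shControl* cells. The acyl-CoA synthetase genes *Acsl5* (9.84 FPKM in *shβ-catenin* and 5.66 FPKM in *shControl* cells) and *Acsl4* (43.9 FPKM in *shβ-catenin* and 28.7 FPKM in *shControl* cells) were higher too. *Gpat3*, a glycerol-3-phosphate acyltransferase gene, was lower, at 3.21 FPKM in *shβ-catenin* cells and 4.72 FPKM in *shControl* cells. Of 6 other esterifying genes, 4 were listed at 0 in both libraries. *Tmem68*, which encodes a triglyceride synthase independent of the DGAT enzymes, was listed at 3.74 FPKM in *shβ-catenin* cells and 5.54 FPKM in *shControl* cells. *Lcat*, the secreted enzyme that esterifies cholesterol on lipoproteins, was listed at 2.60 FPKM in *shβ-catenin* cells and 2.75 FPKM in *shControl* cells.

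A list of other hydrolases of neutral lipids also held *Hilpda*, which encodes an inhibitor of ATGL. Of its 22 genes, 17 had an entry under their symbol and 12 were expressed. *Hilpda*, named outside the rule, is counted among the higher ones, at 20.9 FPKM in *shβ-catenin* cells and 17.6 FPKM in *shControl* cells. The median log2 fold-change of the 12 was 0.14, with 9 higher and 3 lower (11 and 1 with upper quartile scaling). Of all expressed genes, 48.7% were higher (58.3% with that scaling). The only one of the 12 past 2-fold, which 5.32% of all expressed genes passed, was *Lpl*, the lipoprotein lipase that acts outside the cell, 2.28-fold higher at 4.87 FPKM in *shβ-catenin* cells and 2.14 FPKM in *shControl* cells. *Lipg*, the endothelial lipase gene, was 1.62-fold higher, at 7.15 FPKM in *shβ-catenin* cells and 4.41 FPKM in *shControl* cells. *Pnpla1*, a relative of *Pnpla2* that acts in skin barrier lipids, was listed at 1.75 FPKM in *shβ-catenin* cells and 1.03 FPKM in *shControl* cells. The folds of these 3 genes exceed the difference of any of the turnover genes, but they were named for having the largest differences of this list. *Abhd12*, the other gene named by that rule, was 1.40-fold higher, just below *Soat1*. *Pnpla1* was listed below *G0s2* in both libraries and was given no counting interval.

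Genes of the hormonal control of lipolysis had the widest spread among the 7 lists of related pathways. Both ends of it were genes averaging under 5 FPKM, *Prkacb* and *Pde4b*. Genes of the list averaging 5 FPKM or more had log2 fold-changes from −0.99 to 0.13. The transcription factors at that level, described below, ran from −0.26 to 1.29. Of 17 measured, 11 were expressed, and 4 of these were higher and 7 lower, or 5 and 6 with upper quartile scaling (median log2 fold-change −0.13). Over all expressed genes 48.7% were higher, or 58.3% with that scaling. *Prkacb*, a catalytic subunit of protein kinase A, the kinase that phosphorylates hormone-sensitive lipase, was 2.42-fold lower, at 1.88 FPKM in *shβ-catenin* cells and 4.56 FPKM in *shControl* cells. *Prkar2a*, a regulatory subunit, was listed at 4.64 FPKM in *shβ-catenin* cells and 9.33 FPKM in *shControl* cells (log2 fold-change −0.99). *Prkar1b*, another regulatory subunit, was listed at 2.24 FPKM in *shβ-catenin* cells and 3.25 FPKM in *shControl* cells. The catalytic subunit that dominates in these cells differed little. *Prkaca*, the main catalytic subunit here and outside the rule for naming genes, was at 53.3 FPKM in *shβ-catenin* cells and 55.3 FPKM in *shControl* cells. *Pde4b*, which breaks down cyclic AMP, was 2.84-fold higher, at 2.40 FPKM in *shβ-catenin* cells and 0.847 FPKM in *shControl* cells. *Plin1*, the droplet protein that holds ABHD5 in fat cells, also outside that rule, was listed at 0 in both.

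Downstream of LIPA, cholesterol leaves the lysosome through NPC2 and NPC1. *Npc2* was listed at 182 FPKM in *shβ-catenin* cells and 141 FPKM in *shControl* cells, a 1.29-fold higher value. *Npc1* was 1.20-fold lower, at 10.2 FPKM in *shβ-catenin* cells and 12.3 FPKM in *shControl* cells. *Lamp1*, an abundant protein of the lysosomal membrane, was 1.23-fold higher, at 223 FPKM in *shβ-catenin* cells and 181 FPKM in *shControl* cells, and *Stard3*, a sterol transporter of late endosomes, was 1.12-fold lower. Over the 6 genes of this list 2 were higher and 4 lower (median log2 fold-change −0.024), or 4 and 2 with upper quartile scaling (0.055). Higher values were seen in 48.7% of all expressed genes, or 58.3% with that scaling. The 4 measured genes of fatty acid binding had log2 fold-changes from −0.13 (*Fabp5*) to 0.29 (*Fabp3*), with *Dbi*, an acyl-CoA binding protein, at −0.044 and *Cd36*, a fatty acid transporter, at −0.0035.

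Of 12 transcription factors known to act on these enzymes 10 were expressed. Of these, 5 were higher and 5 lower (8 and 2 with upper quartile scaling), and their median log2 fold-change was 0.16. The share of all expressed genes that were higher was 48.7%, or 58.3% with that scaling. *Pparg*, which drives *Pnpla2*, *G0s2* and other genes in fat cells, was 2.49-fold higher, at 7.28 FPKM in *shβ-catenin* cells and 2.92 FPKM in *shControl* cells. *Tfeb*, a regulator of lysosomal genes, was listed at 12.9 FPKM in *shβ-catenin* cells and 9.87 FPKM in *shControl* cells, and its relative *Mitf* at 1.67 FPKM in *shβ-catenin* cells and 1.25 FPKM in *shControl* cells. *Cebpb*, an early factor of fat cell differentiation, was listed at 85.2 FPKM in *shβ-catenin* cells and 61.6 FPKM in *shControl* cells.

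**Figure D4:**
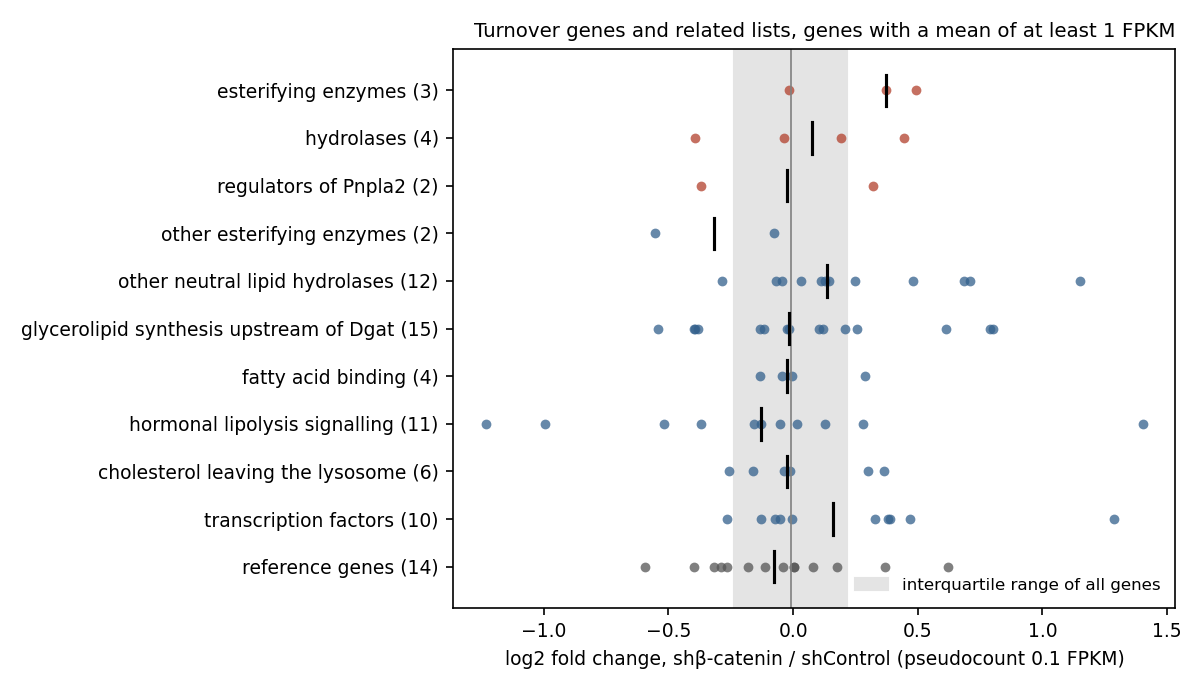
Log2 fold-change of *shβ-catenin* over *shControl* (x axis, pseudocount 0.1 FPKM) of each expressed gene (points), by list, with the number of such genes in brackets. Short black lines are list medians, the grey band is the interquartile range of all expressed genes and the grey line their median. The turnover genes (red) span −0.39 to 0.49. The reference genes (dark grey) span −0.59 to 0.62, or −0.40 to 0.37 without their extremes, *Gapdh* and *Tfrc*. The widest list shown is hormonal lipolysis signaling (−1.23 to 1.40), with both ends at genes averaging under 5 FPKM.

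Markers of 2 cell types that are rich in these enzymes were measured beside them. Of 10 macrophage markers, the 3 expressed ones were *Cd14*, *Cd68* and *Lyz*, all more than 2-fold higher in *shβ-catenin* cells. Of the 13097 expressed genes, 428 were higher by more than 2-fold, and 5.32% passed 2-fold in either direction. The whole macrophage list summed to 209 FPKM in *shβ-catenin* cells and 72.2 FPKM in *shControl* cells. The defining markers *Ptprc* (listed at 0 in both), *Csf1r* (0.0547 FPKM in *shβ-catenin* and 0.0228 FPKM in *shControl* cells) and *Adgre1* (0.0214 FPKM in *shβ-catenin* cells, 0 in *shControl* cells) were at or near 0. In the same library *Lipa* was lower and *Soat1* and *Nceh1* were higher, and any link to these markers was not tested. Of 11 adipocyte markers 9 had an entry, and their sum was 12.4 FPKM in *shβ-catenin* cells and 8.49 FPKM in *shControl* cells. Of the 3 expressed ones, *Pparg* was higher, *Cfd* was level, at 4.12 FPKM in *shβ-catenin* cells and 4.11 FPKM in *shControl* cells, and *Cidec* was listed at 0.929 FPKM in *shβ-catenin* cells and 1.46 FPKM in *shControl* cells. *Adipoq*, which defines fat cells, was listed at 0.0395 FPKM in *shβ-catenin* cells and 0 in *shControl* cells, and *Plin1*, *Lep*, *Cidea*, *Retn* and *Ucp1* were listed at 0 in both. Endothelial markers summed to 2.42 FPKM in *shβ-catenin* cells and 0.342 FPKM in *shControl* cells. Most of both sums was *Pecam1*, at 2.08 FPKM in *shβ-catenin* cells and 0.275 FPKM in *shControl* cells. Keratinocyte markers summed to 1.47 FPKM in *shβ-catenin* cells and 1.28 FPKM in *shControl* cells. The part of these marker lists in the differences of the turnover genes was not tested.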

How the data were processed

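Total RNA of 1 *shβ-catenin* and 1 *shControl* culture of NSFs was made into stranded mRNA libraries and sequenced as paired ends. The authors aligned them to the NMR reference assembly. The submitters' notes name TopHat2 2.0.13, Bowtie2 2.2.3, SAMtools 0.1.19 and, for the deposited FPKM values, Cufflinks 2.2.1. The annotation, the depth and any filter on low values are not given in the sources used here. FPKM allows levels to be compared between genes, but it keeps no fragment counts, and a share gained by abundant genes lowers all others.

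FPKM were used as deposited, with a pseudocount of 0.1 for log2 fold-changes and, for counts, genes averaging 1 FPKM or more (expressed genes). The threshold was 4-fold, that of the study's methods, with 2-fold and 1.5-fold beside it. The relative depth was read from 5239 low genes, those between 0 and 1 FPKM in each library. Their commonest ratio, *shβ-catenin* over *shControl*, was 1.20 (*shControl* the deeper). Whole fragments were the smallest numbers with a total of at most 60 that give a ratio within 0.002%. They were found for 34.4% of genes averaging 1 to 3 FPKM, against 1.51% with the depth shifted by 1.4%. An interval for *G0s2*, which lies in this range, was added after the data were seen.

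Alternatives were a pseudocount of 0.01 or 1, median ratio or upper quartile scaling, filters of none or of 5 FPKM on average, single entries per symbol (268 entries share one), and other definitions of the roles. A value without a test was taken as moved when it changed by more than 0.1 on the log2 scale. The members and lists were chosen with earlier results of these data known. Named genes are all members and, per list, up to 4 genes with the largest difference among expressed genes. *Soat2*, *Plin1*, *Abhd6*, *Hilpda*, *Prkaca* and several cell type markers and reference genes lie outside this rule, being picked with their values known. All 10 symbols matched protein-coding genes of RefSeq, whose assembly differs from that of the study, so no coordinates are given. Sequences were not used here. Scripts ran in Python 3.11.15 (scipy 1.17.1, matplotlib 3.10.9, pandas 2.3.3, numpy 2.4.6) and were tested on simulated data.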

Additional observations from a re-analysis of the deposited data

How the results depend on the processing

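Of 40 recomputed log2 fold-changes of single members, 37 moved by at most 0.1, and the others were *Mgll* with either pseudocount and *G0s2* with a pseudocount of 1 (−0.27). With a pseudocount of 1, the median log2 fold-change was 0.11 over all members and 0.051 over the hydrolases. That of the hydrolases was 0.077 with a filter of 1 or 5 FPKM on the mean and without *Mgll*. Scaling to the median ratio or the upper quartile raised log2 fold-changes by 0.016 and 0.079. Both shifts are below 0.1, so no member could count as moved by scaling. *Dgat1* and *Pnpla2* nevertheless changed sign with upper quartile scaling. The log2 change of the esterifying to hydrolyzing ratio was 0.36, but 0.15 from mean log2 values and 0.12 without *Lipa*. At 1.25-fold in place of 2-fold (0 and 0), 3 members were higher and 2 lower. Of the 60 expressed genes of the pathway lists, 3 were higher and 1 lower past 2-fold (6.67%, against 5.32% of all expressed genes). The higher ones numbered 1 with a pseudocount of 1 or a filter of 5 FPKM, 8 at 1.5-fold and 14 at 1.25-fold, and the lower ones 2 with a pseudocount of 0.01, without the filter or at 1.5-fold, 0 with a pseudocount of 1 or a filter of 5 FPKM, and 9 at 1.25-fold. Without the filter the median was −0.018 for lipolysis signaling and 0.35 for transcription factors.

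Over all genes, those past 2-fold numbered 428 higher and 269 lower, against 236 and 145 with a pseudocount of 1, 2013 and 1145 without the filter, and 134 and 117 with a filter of 5 FPKM. Past 4-fold they numbered 89 and 27, against 32 and 9, 409 and 197, and 24 and 6. The list of other esterifying enzymes had no gene with a filter of 5 FPKM and gave no value there. No paired analysis was possible because each condition has 1 library. For the same reason no library could be left out, and differences of the size seen here could not be set against a spread between cultures.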
